A study of Homo sapiens with 4 samples.

Results

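Genes that differed between HepG2 cells given a short hairpin RNA against PJA1 and HepG2 cells given a control hairpin are described here, across all genes with enough reads for a ratio. HepG2 is an established line from a human liver tumour in which much of the hepatocyte gene programme is still active. Both cultures were infected with a lentivirus, which carried the hairpin against PJA1 in the shPJA1 library and the control hairpin in the shCtrl library, and no cytokine is labelled for either. Each hairpin had 1 library, and whether the infected cells were a pool or a clone is not given in the sources used here. The genes compared are the 8575, of 23368 gene symbols measured, whose normalized counts averaged at least 20 across the study's 4 libraries. The normalized count is the number of reads on a gene divided by a size factor of its library, with no division by gene length. The other libraries are TGFb1, labelled as treated with TGF-beta1, which the protocol gives as 200 pM for 1 hour, and a library with conflicting labels. That library is titled shPJA/TGFb1, its treatment label says water, and where it should stand the series' design text gives an untreated control. It is called the library titled shPJA/TGFb1, and with TGFb1 it forms a second pair that by title also differs in the PJA1 hairpin and shares no library with the first.

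PJA1 encodes praja1, a RING-type E3 ubiquitin ligase, which attaches ubiquitin to target proteins together with an E2 enzyme and so can send them to the proteasome. Proteins known as its targets or partners include the spectrin SPTBN1, an adaptor of SMAD3 in TGF-beta signalling, SMAD3 itself, the adaptor MAGED1, the polycomb methyltransferase EZH2 and the repressor CIC. Because a ligase acts on proteins, its targets need not change at the level of RNA, which is what was measured.

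The 4 libraries held 1784689 reads in shPJA1, 1363318 in shCtrl, 990698 in the library titled shPJA/TGFb1 and 2848665 in TGFb1, and the 8575 genes held from 97.6% to 97.8% of them. All 15 hepatocyte markers had reads in every library, with a summed normalized count of 46157 in shPJA1 and 43857 in shCtrl, most of it from APOB. Of 20 leukocyte markers 10 had reads in shPJA1 and 11 in shCtrl, with sums of 1442 and 1579, and LYZ held most of the reads, while the pan-leukocyte marker PTPRC was at 0 in all 4 libraries. The endothelial sums were 216.1 in shPJA1 and 194.0 in shCtrl, mostly ESAM, with CDH5 and KDR at 0, and the fibroblast sums were 189.1 and 198.7, mostly ACTA2, with DCN and LUM at 0. With 1 library a side a ratio has no replicate check. Each ratio is shPJA1 over shCtrl and is followed by an exact 95% interval for 2 read counts, which covers counting error only, so differences between separate cultures are not in it.

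PJA1 was low in the library infected with its hairpin. Its normalized count was 15.3 in shPJA1, from 17 reads, against 50.3 in shCtrl, from 43 reads. In the second pair it was 9.78 in the library titled shPJA/TGFb1 and 38.2 in TGFb1. Both libraries whose titles name the hairpin therefore lay below both of the others. The ratio was 0.305 in the first pair (0.163 to 0.545) and 0.256 in the second (0.0908 to 0.588), the lowest ratio among the 8575 genes in the first pair. The low PJA1 level of the library titled shPJA/TGFb1 bears on the hairpin in its title and not on whether it was given TGF-beta1 or water.

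None of the known partners of PJA1 passed the rule used here for single genes, while more of them lay above 1 than below. Of 12 partners 11 had a mean of at least 20, and 0 of these were 1.5-fold higher or lower with an interval without 1. Of the 8575 genes 1.85% passed this rule as higher and 1.96% as lower, so 0 of 11 is close to the share over all genes. Of the 11, 8 (72.7%) had a ratio above 1 and 3 below, against 51.1% above 1 over all genes. The summed reads of the 11 went the other way, at a ratio of 0.969 (0.941 to 0.997). Their median log2 ratio was 0.22, against 0.01 over all genes. With the GC trend described below removed the median was 0.11, with 3 again below 1, and in the second pair it was -0.02, with 7 below 1. The highest partner was CIC at 1.3, with an interval holding 1 (0.906 to 1.9). SPTBN1 had normalized counts of 7536 in shPJA1 and 8009.7 in shCtrl, a ratio of 0.941 (0.911 to 0.972). SMAD3 had 466 and 486, and its ratio of 0.959 had an interval holding 1 (0.841 to 1.09). SMAD2 was at 1.08 (0.901 to 1.31), SMAD4, the common partner of receptor-activated SMADs, at 0.905 (0.752 to 1.09), and MAGED1 at 1.16 (0.933 to 1.46). EZH2 had only 29 reads in shPJA1 and 20 in shCtrl, so its ratio of 1.12 was loosely bounded (0.611 to 2.08). DLX5, a homeobox factor that PJA1 has been linked to through MAGED1, had 0 reads in both. The paralog PJA2, also a RING ligase, had normalized counts of 399.8 in shPJA1, 313 in shCtrl, 346 in the library titled shPJA/TGFb1 and 364 in TGFb1. Its ratio was 1.28 (1.09 to 1.49), and 1.16 with an interval holding 1 (0.998 to 1.36) once the GC trend was removed. The E2 enzymes of the UBE2D family were at 1.23 for UBE2D1, 1.18 for UBE2D2 and 1.19 for UBE2D3, each with an interval holding 1.

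Few genes differed by 2-fold, and most that did had few reads. Of the 8575 genes 28 were at least 2-fold higher in shPJA1 (0.327%) and 29 at least 2-fold lower (0.338%). With the interval rule, a ratio of at least 1.5-fold and an interval without 1, 159 genes were higher and 168 lower. The spread of the log2 ratio narrowed with the level, with an SD across genes of 0.44 at a mean of 20 to 50 (2409 genes), 0.28 at 50 to 200 (4104 genes), 0.18 at 200 to 1000 (1916 genes) and 0.15 above 1000 (146 genes). Genes of a mean under 50 made up 73 of the 159 higher and 97 of the 168 lower genes, and genes of a mean from 200 to 1000 only 2 and 1. Among the 146 most abundant genes 0 passed it, and their ratios ran from 0.820 to 1.34. CASC5, at a mean of 20.03, was the gene just inside the limit on the mean, and FKBP11, at 19.95, was just outside.

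**Figure D1:**
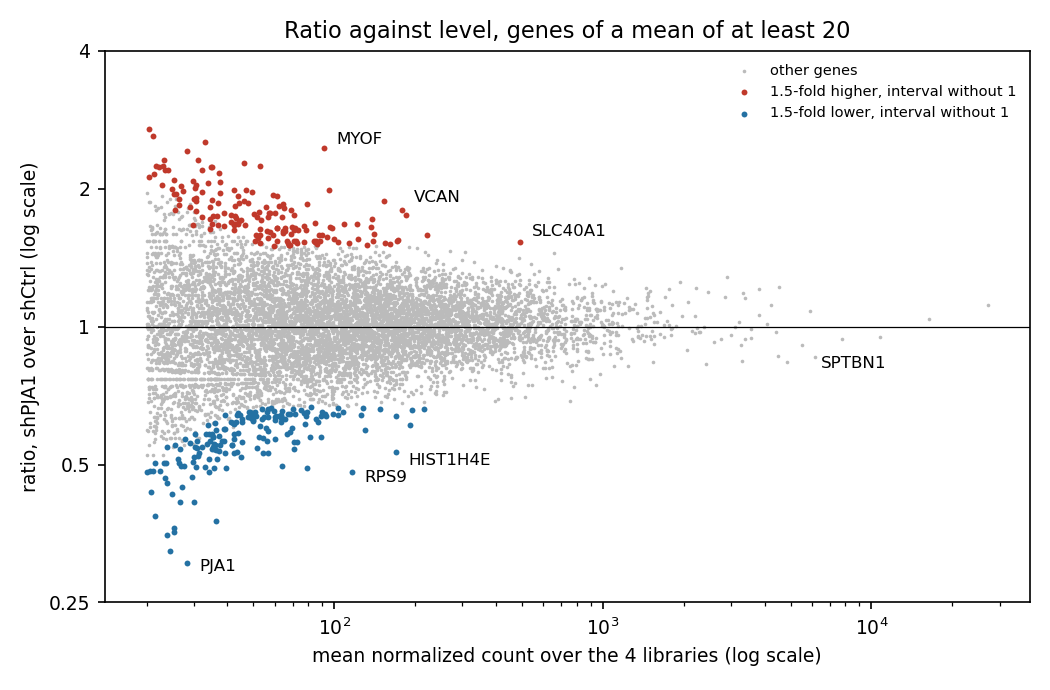
Ratio of shPJA1 over shCtrl (log axis) against the mean normalized count over the 4 libraries (log axis) for 8575 genes, 1 point per gene. Red points are the 159 genes at least 1.5-fold higher and blue points the 168 at least 1.5-fold lower whose 95% counting interval leaves out 1. The cloud narrows to the right, and PJA1 is the lowest point.

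The ratio followed the GC content of the transcripts. Among the 2110 genes with the least GC in their transcripts, from 31.5% to 41.4%, the median log2 ratio was 0.13, and 75 genes were higher and 10 lower by the interval rule. Among the 2110 with the most GC, from 54.8% to 71.9%, the median was -0.10, and 21 genes were higher and 84 lower. The 2 groups of 2110 genes between had medians of 0.03 and -0.06. Long transcripts leaned higher as well, with median log2 ratios of -0.07, -0.01, 0.03 and 0.06 from the shortest to the longest of 4 such groups. In the second pair the GC medians ran the other way, -0.15, -0.08, 0.06 and 0.18 from the least GC to the most. The part of this trend in the differences below was not tested gene by gene beyond its removal. For each list the count of genes past the rule is therefore also given after each library's smooth trend with GC content was subtracted. After that step 138 genes were higher and 129 lower, of which 104 and 110 had also passed without it.

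**Figure D2:**
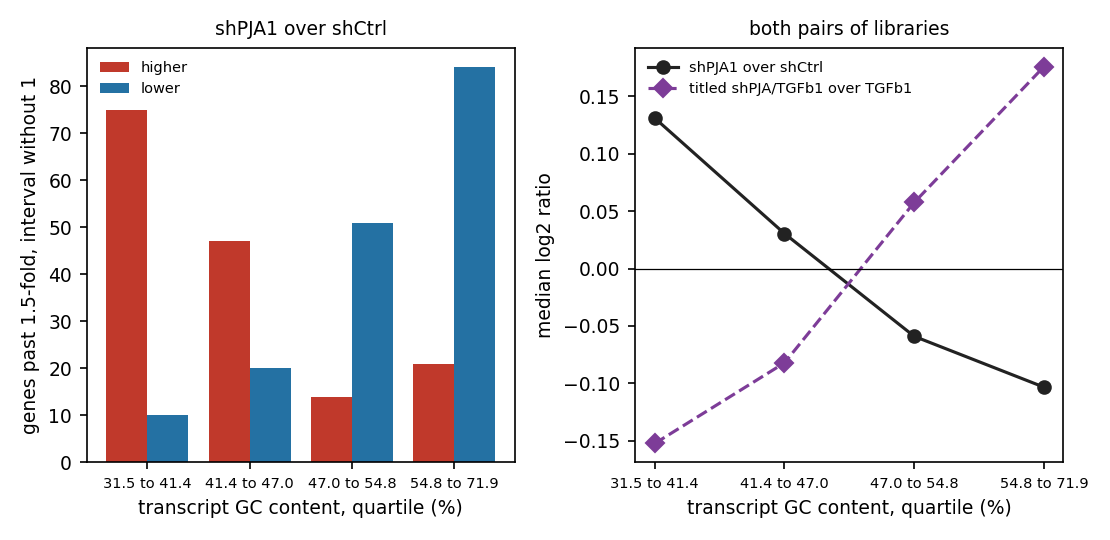
Left, number of genes past the 1.5-fold interval rule in shPJA1 over shCtrl (red higher, blue lower) in 4 equal groups of genes by transcript GC content (%). Right, median log2 ratio of each group in shPJA1 over shCtrl (black) and in the library titled shPJA/TGFb1 over TGFb1 (purple). The black line runs downwards, 0.13 in the group with the least GC and -0.10 in that with the most, and the purple line runs upwards, -0.15 and 0.18.

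Among the higher genes whose intervals lay farthest from 1 were several of the cell surface and membrane. MYOF encodes myoferlin, a membrane protein that repairs and fuses plasma membrane. It had normalized counts of 126 in shPJA1, 51.4 in shCtrl, 79.9 in the library titled shPJA/TGFb1 and 109.9 in TGFb1, and a ratio of 2.45 (1.74 to 3.52). The shCtrl library was the lowest of the 4, and in the second pair the ratio was 0.727 (0.52 to 0.999). DPP4, a surface peptidase that cleaves incretin hormones, had 116 in shPJA1, 58.4 in shCtrl, 112 in the library titled shPJA/TGFb1 and 94.5 in TGFb1, with a ratio of 1.99 (1.42 to 2.81). Here too shCtrl stood below the other 3. VCAN, the matrix proteoglycan versican, had 227 in shPJA1 and 126 in shCtrl, a ratio of 1.8 (1.43 to 2.27), against 0.945 in the second pair (0.752 to 1.18). SLC40A1, which encodes ferroportin, the iron exporter of the cell surface, was among the more abundant of these genes. It had 524 in shPJA1, from 582 reads, and 342 in shCtrl, from 293 reads, a ratio of 1.53 (1.33 to 1.77), and 1.46 with the GC trend removed (1.27 to 1.69), which is under 1.5-fold. The library titled shPJA/TGFb1 and TGFb1 had 523 and 569, both close to shPJA1. SLC16A6, a monocarboxylate transporter family member, was at 1.75 (1.4 to 2.2), and GCNT2, which branches glycan chains in the Golgi, at 1.58 (1.29 to 1.94).

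PML and ZC3H4 were among the higher genes with few reads. PML, the scaffold of PML nuclear bodies, had normalized counts of 49.5 in shPJA1, 22.2 in shCtrl, 40.7 in the library titled shPJA/TGFb1 and 27.3 in TGFb1. Its ratio was 2.23 (1.3 to 3.98) in the first pair and 1.49 in the second, where the interval held 1 (0.881 to 2.47). ZC3H4, a CCCH zinc finger protein that limits transcription of unstable RNAs, had 39.6 in shPJA1, 16.4 in shCtrl, 39.1 in the library titled shPJA/TGFb1 and 18.2 in TGFb1. Both libraries titled with the hairpin lay above both of the others, with ratios of 2.42 (1.3 to 4.78) and 2.15 (1.21 to 3.76). The microtubule-binding gene NAV3 was at 1.88 (1.45 to 2.44), the guanine nucleotide exchange factor gene ARHGEF3 at 1.72 (1.34 to 2.23) and the zinc finger gene ZNF248 at 2.31 (1.33 to 4.19). JMJD1C, a jumonji-domain chromatin protein, was just under 1.5-fold at 1.45 but was closely bounded (1.29 to 1.64). MAB21L3, with 35 reads in shPJA1 and 10 in shCtrl, had the highest ratio of the genes named here, 2.7 (1.31 to 6.11). Among the 10 highest ratios were also HTR2B, a serotonin receptor, at 2.6 (1.15 to 6.62), and TEFM, a factor of mitochondrial transcription elongation, at 2.31 (1.18 to 4.88).

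TUBGCP5, SLC13A5, PGC and PAEP were among the lower genes with the lowest ratios or the intervals farthest from 1. TUBGCP5, a subunit of the gamma-tubulin ring complex from which microtubules grow, had normalized counts of 20.7 in shPJA1, 54.9 in shCtrl, 32.6 in the library titled shPJA/TGFb1 and 36.4 in TGFb1. The ratio was 0.377 (0.218 to 0.633), with shCtrl the highest of the 4. Of 23 gamma-tubulin and centrosome genes 1 was lower, TUBGCP5, and 1 higher (4.35% each), beside 1.96% and 1.85% of all 8575 genes. The higher gene was CEP135, a centriole protein, at 1.63 (1.07 to 2.53), and CEP135 did not pass with the GC trend removed. SLC13A5, the citrate importer of liver cells, had 52.2, 105, 57 and 41 in the same order of libraries and a ratio of 0.496 (0.351 to 0.698). Again shCtrl stood above the other 3. PGC, pepsinogen C, was at 0.491 (0.347 to 0.69), PAEP, the secreted lipocalin glycodelin, at 0.385 (0.193 to 0.739) and DEXI at 0.364 (0.192 to 0.665). The zinc finger genes ZNF329 and ZNF749 were at 0.356 (0.191 to 0.636) and 0.35 (0.177 to 0.663). Of the 232 genes named ZNF with a mean of at least 20, 8 were higher and 8 lower (3.45% each), beside 1.85% and 1.96% of all 8575 genes. This family was counted after its values were seen. IER3, an immediate early gene induced by stress and cytokines, had 916 reads in shPJA1 and 1025 in shCtrl and was at 0.688 (0.629 to 0.753), short of 1.5-fold. IER3 went the other way in the second pair, at 1.55 (1.36 to 1.76).

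**Figure D3:**
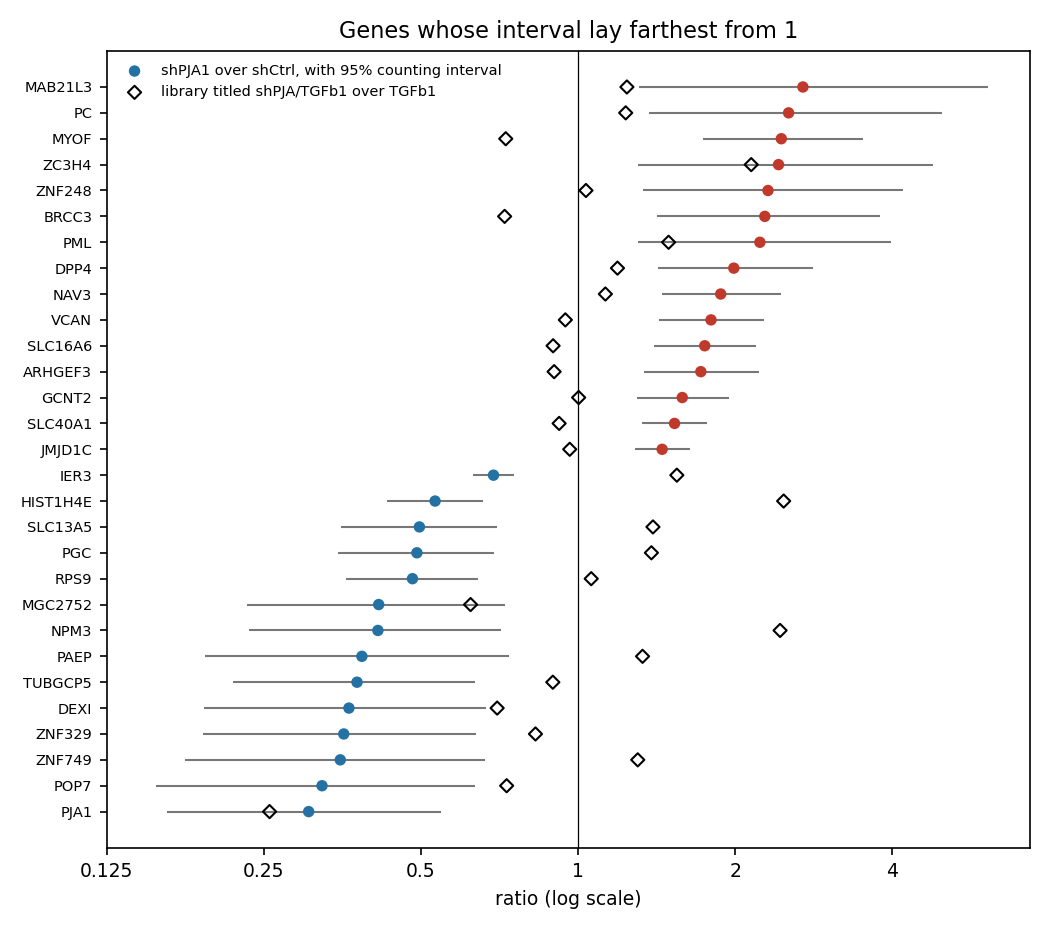
Ratios (log axis) of 15 higher and 14 lower genes, among those whose interval bound nearest to 1 lay farthest from 1. Filled points are shPJA1 over shCtrl, red where higher and blue where lower, with bars for the 95% counting interval, and open diamonds are the library titled shPJA/TGFb1 over TGFb1. PJA1 and ZC3H4 have both symbols at a distance from 1 on the same side, while HIST1H4E, NPM3 and IER3 have them on opposite sides.

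DNA repair genes counted more higher members than all genes did. The list was chosen with earlier results of these data known, so its share is a description only. Of 46 genes of DNA damage signalling and the BRCA1-A complex, 33 had a mean of at least 20, and 6 of these (18.2%) were higher by the interval rule and 0 lower, beside 1.85% and 1.96% of all 8575 genes. The median log2 ratio of the list was 0.11, with 23 of 33 above 1, against a median of 0.01 and 51.1% above 1 over all genes. BRCC3, which cuts lysine-63-linked ubiquitin chains within the BRCA1-A complex, had normalized counts of 63.9 in shPJA1, 28.1 in shCtrl, 39.1 in the library titled shPJA/TGFb1 and 54.1 in TGFb1. Its ratio was 2.28 (1.42 to 3.79), and in the second pair 0.723 (0.442 to 1.14). FANCL, the E3 ligase of the Fanconi anaemia core complex, had 33.3 in shPJA1, 15.2 in shCtrl, 24.4 in the library titled shPJA/TGFb1 and 20.5 in TGFb1, with a ratio of 2.19 (1.14 to 4.5). The checkpoint kinase gene CHEK1 had 60.3, 33.9, 65.2 and 50.7 in that order, with a ratio of 1.78 (1.14 to 2.85). For all 3 genes shCtrl was the lowest library. RAD17, which loads the checkpoint clamp, was at 1.75 (1.23 to 2.51) and the E3 ligase gene RAD18 at 1.62 (1.02 to 2.64). The median GC content of the list was 42.2%, against 47.1% over all genes. With the GC trend removed 5 of the 6 still passed, all but RAD18, and the list's median was 0.10. In the second pair 0 members were higher and 1 lower, with a median of -0.11.

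DNA replication and cell division genes gave a few higher members. Over all 8575 genes 1.85% were higher and 1.96% lower by the interval rule. Of 23 replication genes with a mean of at least 20, from a list of 46, 3 were higher and 0 lower. All 3 still passed with the GC trend removed. CDC6, which licenses replication origins, had 33 reads in shPJA1 and 12 in shCtrl, a ratio of 2.12 (1.07 to 4.5). The origin recognition gene ORC3 was at 1.82 (1.09 to 3.15) and the helicase subunit gene MCM4 at 1.51 (1.05 to 2.2). The median log2 ratio of the 23 was 0.08, with 12 above 1 and 11 below. Of 17 mitosis genes 1 was higher, TOP2A, the topoisomerase that untangles sister chromatids, at 1.65 (1.19 to 2.33), and 0 were lower. Histone genes of S phase went both ways. HIST1H4E had normalized counts of 139 in shPJA1, 261 in shCtrl, 199 in the library titled shPJA/TGFb1 and 80.3 in TGFb1, with a ratio of 0.532 (0.43 to 0.656) and of 2.48 in the second pair (1.93 to 3.18). HIST1H4C was at 0.578 (0.356 to 0.928), and the linker histone gene HIST1H1C was higher at 1.6 (1.09 to 2.38). Only 9 of 42 histone genes had a mean of at least 20, and histone H4 genes encode the same protein from near-identical coding sequences, so reads could be split among them.

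Genes of the cytosolic ribosome leaned lower in shPJA1. Of 79 ribosomal protein genes 64 had a mean of at least 20, and 50 of these had a ratio below 1, against 48.9% of all genes. By the interval rule 4 of the 64 (6.25%) were lower and 0 higher, beside 1.96% and 1.85% of all 8575 genes. The median log2 ratio was -0.20 for the small subunit (24 genes) and -0.18 for the large subunit (40 genes). Their summed reads gave a ratio of 0.895 (0.877 to 0.913). With the GC trend removed the median over both subunits was -0.14 instead of -0.19, 50 of 64 were again below 1, and 3 of the 4 still passed. The median was 0.04 in the second pair, with 27 of 64 below 1, against 51.6% of all genes there. Ribosomal protein genes have many near-identical processed pseudogenes across the genome, between which reads could be split, so single genes of this family are uncertain.

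Ribosomal protein transcripts typically begin with a C and a run of pyrimidines, the 5′ terminal oligopyrimidine tract, through which mTOR signalling controls their translation. The start region is shown for 4 ribosomal protein genes with low upper interval bounds, taken only from genes with a tract scored as below. That each has a tract was therefore fixed by the choice. The region runs from 10 bases before the annotated start to 20 bases from it, and capitals mark the pyrimidines from the scored C onwards. In RPL14 more pyrimidines stand directly before the capitals. Sequences and coordinates are from RefSeq on GRCh38.p14, on the plus strand, and are RPS9 at chr19:54200848-54200877, RPS21 at chr20:62387093-62387122, RPL14 at chr3:40457329-40457358 and RPS3 at chr11:75399508-75399537.
RPS9: gcttccgcgCCTCTTTCTCagtgaccgggt
RPS21: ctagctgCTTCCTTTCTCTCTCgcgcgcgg
RPL14: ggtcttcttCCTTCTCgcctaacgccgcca
RPS3: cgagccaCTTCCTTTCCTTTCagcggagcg
A tract was scored where a C within 3 bases of an annotated start was followed by at least 4 more pyrimidines on the transcribed strand. It was found at a listed start of 42 of the 51 ribosomal protein genes with an entry (82.4%), of 20.1% of the 7021 compared genes with an entry, and at 13.03% of all 35116 listed starts. Of the ribosomal protein genes 79.7% had an entry. Their median log2 ratio was -0.20 with a tract and -0.23 in the few genes without, and the part of the tract in these ratios was not tested. Over all compared genes with an entry the medians were -0.0044 and 0.01.

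RPS9, a small subunit protein near the decoding centre, had normalized counts of 72 in shPJA1, 149.6 in shCtrl, 126 in the library titled shPJA/TGFb1 and 118 in TGFb1. Its ratio was 0.481 (0.359 to 0.642), with shPJA1 below the other 3 libraries. RPS21 had 45.9 in shPJA1, 86.5 in shCtrl, 53.8 in the library titled shPJA/TGFb1 and 41 in TGFb1, a ratio of 0.531 (0.364 to 0.769), with shCtrl above the other 3. RPL34 was at 0.636 (0.44 to 0.917). RPS2, at 0.505 (0.267 to 0.931), rested on 19 reads in shPJA1 and 29 in shCtrl and did not pass with the GC trend removed. The deeper RPS3 had 979 reads in shPJA1 and 957 in shCtrl and a ratio of 0.788 (0.72 to 0.862), and RPL14 was at 0.709 (0.59 to 0.851). Not every abundant member was lower, with RPL11 at 1.03 (0.916 to 1.15) and RPS4X at 0.96 (0.87 to 1.06).

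Factors that build ribosomes and trim RNA precursors also included lower members. Ribonuclease P and its relative RNase MRP cut the ends of tRNA and rRNA precursors and share most protein subunits. POP7, 1 of these subunits, had normalized counts of 11.7 in shPJA1, 36.2 in shCtrl, 21.2 in the library titled shPJA/TGFb1 and 29 in TGFb1. POP5, another, had 27, 50.3, 31 and 36.4 in the same order. For both genes shPJA1 was the lowest library and shCtrl the highest, with ratios of 0.323 (0.155 to 0.635) and 0.537 (0.326 to 0.877), and both still passed with the GC trend removed. The remaining 6 of 8 measured subunits passed in neither direction, 4 of the 8 lay below 1, and RPP14 was at 0.722 (0.534 to 0.974). Of 43 nucleolar ribosome biogenesis genes 31 lay below 1, 2 were lower and 0 higher. NPM3, a nucleoplasmin family histone chaperone of the nucleolus, was at 0.413 (0.234 to 0.71) from 22 reads in shPJA1 and 41 in shCtrl. BYSL, which acts in small subunit assembly, was at 0.607 (0.393 to 0.933) and did not pass with the GC trend removed. NCL, the abundant nucleolin, was at 0.989 (0.944 to 1.04). Of 67 mitochondrial ribosomal protein genes 1 was higher, MRPL32 at 1.93 (1.26 to 3.0), and 3 were lower, MRPS34 at 0.586 (0.367 to 0.93), MRPL22 at 0.646 (0.446 to 0.932) and MRPS14 at 0.65 (0.423 to 0.994). Of 39 translation factors and 20 aminoacyl-tRNA synthetases 0 passed either way, beside 1.85% higher and 1.96% lower over all 8575 genes.

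**Figure D4:**
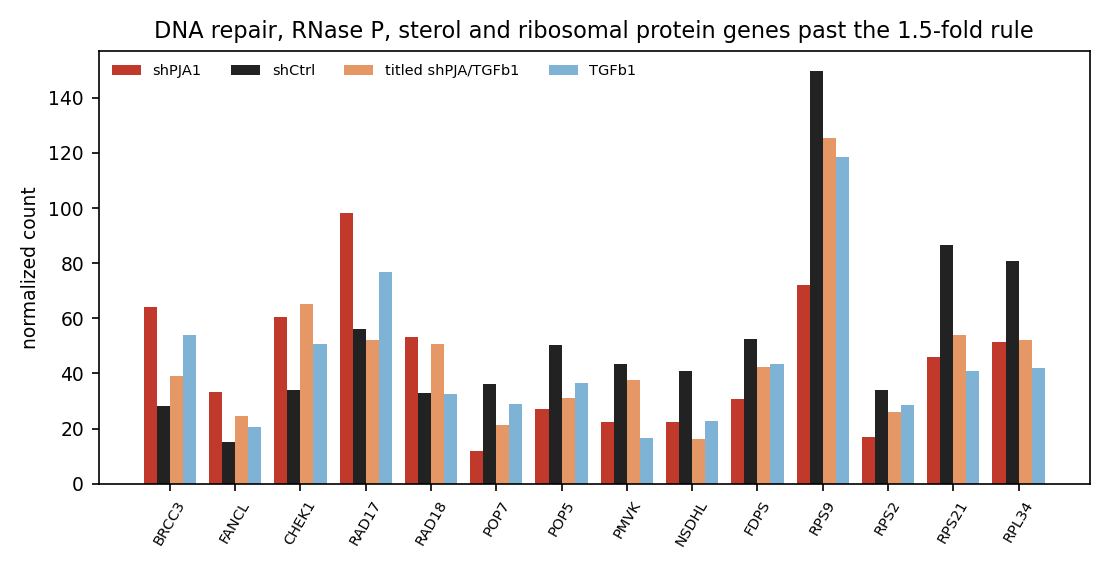
Normalized counts (bars from 0) in shPJA1 (red), shCtrl (black), the library titled shPJA/TGFb1 (orange) and TGFb1 (light blue) of the DNA repair, RNase P, sterol synthesis and cytosolic ribosomal protein genes past the 1.5-fold interval rule. The red bars stand above the black ones for the 5 repair genes shown and below them for the other 9.

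Respiratory chain genes leaned lower and sterol synthesis included lower members. Of 69 nuclear-encoded oxidative phosphorylation genes 47 (68.1%) had a ratio below 1, against 48.9% of all 8575 genes. The median log2 ratio was -0.12, and it was also -0.12 with the GC trend removed. By the interval rule 3 (4.35%) were lower and 1 (1.45%) higher, beside 1.96% and 1.85% of all 8575 genes. The lower genes were NDUFS5 at 0.582 (0.415 to 0.813) and NDUFA12 at 0.626 (0.426 to 0.917) of complex I, and CYC1 at 0.622 (0.404 to 0.953) of complex III. CYC1 did not pass with the GC trend removed. NDUFB11, also of complex I, was higher, with normalized counts of 46.8 in shPJA1, 21 in shCtrl, 34.2 in the library titled shPJA/TGFb1 and 37 in TGFb1 and a ratio of 2.23 (1.28 to 4.04). The list's median was 0.03 in the second pair.

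Of 20 cholesterol synthesis genes 3 (15%) were lower and 0 higher, beside 1.96% and 1.85% of all 8575 genes. All 3 passed with the GC trend removed too. The median log2 ratio of the list was -0.15, but 0.01 over its members with a mean of at least 50. PMVK, phosphomevalonate kinase of the mevalonate pathway, had normalized counts of 22.5 in shPJA1, 43.2 in shCtrl, 37.5 in the library titled shPJA/TGFb1 and 16.5 in TGFb1, a ratio of 0.521 (0.30 to 0.888). NSDHL, a sterol demethylation enzyme, had 22.5, 40.9, 16.3 and 22.8 in that order, a ratio of 0.55 (0.316 to 0.946). FDPS, which makes farnesyl diphosphate, was at 0.582 (0.362 to 0.929). For all 3 shCtrl was the highest library. Other genes of the list with more reads were closer to 1, with FDFT1, squalene synthase, at 0.817 (0.657 to 1.02) and INSIG2, which retains the sterol sensor in the endoplasmic reticulum, at 1.24 (1.05 to 1.47).

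Carbohydrate and drug metabolism had higher members only. PC, pyruvate carboxylase, which feeds gluconeogenesis and the tricarboxylic acid cycle, had normalized counts of 41.4 in shPJA1, 16.4 in shCtrl, 40.7 in the library titled shPJA/TGFb1 and 33 in TGFb1. Its ratio was 2.53 (1.37 to 4.99), and shCtrl alone was low. Besides PC, PFKP of glycolysis was at 1.67 (1.01 to 2.83), while 16 of the 22 glycolysis and gluconeogenesis genes lay below 1, among them ENO2 at 0.734 (0.552 to 0.974) and GAPDH at 0.862 (0.768 to 0.969). Of 25 drug and steroid metabolism genes 2 (8.0%) were higher and 0 lower, beside 1.85% and 1.96% of all 8575 genes. Both passed with the GC trend removed. SULT2A1, which sulfates bile acids and steroids, had 82.8 in shPJA1, 46.8 in shCtrl, 70.1 in the library titled shPJA/TGFb1 and 41 in TGFb1. The libraries titled with the hairpin lay above the others, with ratios of 1.77 (1.21 to 2.64) and 1.71 (1.14 to 2.53). UGT2B7, a glucuronidating enzyme, was at 1.77 (1.11 to 2.89), but at 0.619 in the second pair (0.336 to 1.07). CYP1A1, a deeply read cytochrome, was at 1.34 (1.19 to 1.5), and the canalicular exporter ABCC2 at 1.21 (1.14 to 1.29).

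Zinc-handling genes leaned higher without a member past the rule. Of 16 metallothionein and zinc carrier genes 13 had a ratio above 1, against 51.1% of all 8575 genes. The median log2 ratio was 0.14 and did not move with the GC trend removed. In the second pair the median of the list was 0.05, with 9 above 1 and 7 below. SLC39A10, a zinc importer, was at 1.48 (1.12 to 1.97), and the zinc exporter gene SLC30A1 at 1.28 (1.09 to 1.51). Their second-pair ratios were 0.73 (0.547 to 0.961) and 0.839 (0.726 to 0.968). MT2A, a metallothionein, was at 1.06 (0.917 to 1.24). Of 23 iron, heme and copper genes 1 was higher and 1 lower (4.35% each), beside 1.85% and 1.96% of all 8575 genes. SLC40A1 was higher, as above, and the heme oxygenase gene HMOX2 was lower at 0.621 (0.431 to 0.889). With the GC trend removed neither passed.

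Genes of the ubiquitin system other than PJA1 had a few members past the rule. Over all 8575 genes 1.85% passed as higher and 1.96% as lower. Of 41 RING-type ligase genes named RNF 2 were higher and 0 lower. RNF139, a ligase of the endoplasmic reticulum, had normalized counts of 56.7 in shPJA1, 32.7 in shCtrl, 55.4 in the library titled shPJA/TGFb1 and 60.9 in TGFb1, and a ratio of 1.73 (1.09 to 2.81). RNF128, which restrains T cell activation, was at 1.52 (1.2 to 1.93), and at 1.45 with the GC trend removed. Among 39 deubiquitinases BRCC3 was the 1 member past the rule, and 28 lay above 1 and 11 below, but 20 below with the GC trend removed. Of 33 proteasome genes PSMC6, an ATPase of the base, was higher at 2.23 (1.06 to 5.14), and PSMD4, a ubiquitin receptor, was lower at 0.514 (0.293 to 0.885), as was the activator subunit gene PSME2 at 0.642 (0.411 to 0.997). Of these 3 only PSMD4 passed with the GC trend removed. In polycomb repressive complex 2, in which EZH2 is a catalytic subunit, the alternative catalytic subunit gene EZH1 had 89.1 in shPJA1, 54.9 in shCtrl, 65.2 in the library titled shPJA/TGFb1 and 72.9 in TGFb1. The ratio of EZH1 was 1.62 (1.14 to 2.35), and the other 10 members passed in neither direction.

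TGF-beta signalling genes were near 1. Of 23 ligands, receptors, SMADs and regulators of the pathway 0 passed the rule, and their ratios ran from 0.835 to 1.37. Over all 8575 genes 1.85% passed as higher and 1.96% as lower, so 0 of 23 is close to the share over all genes. The upper end was SMURF2, an E3 ligase that acts on SMADs and receptors, at 1.37 (1.14 to 1.66), and the receptor gene TGFBR2 was at 1.06 (0.993 to 1.12). Of 21 target genes of TGF-beta 1 was lower, SPHK1, sphingosine kinase 1, with 170.2 in shPJA1, 258 in shCtrl, 178 in the library titled shPJA/TGFb1 and 170.3 in TGFb1. Its ratio was 0.659 (0.54 to 0.804), or 0.707 with the GC trend removed, which is short of 1.5-fold. CDKN1A, a cell cycle inhibitor and a target of the pathway, was at 0.96 (0.898 to 1.03).

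BAX, IFI6, IFI35 and JUND were lower. BAX, a pore former of mitochondrial apoptosis, had 25.2 in shPJA1, 46.8 in shCtrl, 48.9 in the library titled shPJA/TGFb1 and 21.6 in TGFb1, a ratio of 0.539 (0.32 to 0.896). In the second pair BAX went the other way, at 2.26 (1.35 to 3.75). Over all 8575 genes 1.85% were higher and 1.96% lower by the interval rule, so 1 or 2 members of a short list say little about that list. Of 33 interferon response genes 1 was higher, PML, and 2 were lower, IFI6 at 0.529 (0.355 to 0.781) and IFI35 at 0.435 (0.203 to 0.896). Of 21 immediate early genes JUND, an AP-1 subunit, was lower at 0.662 (0.524 to 0.834), and at 0.712 with the GC trend removed, short of 1.5-fold.

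Most liver genes and many other groups had no member past the rule. Over all 8575 genes 1.85% passed it as higher and 1.96% as lower, so 0 in a short list says little about that list. Of 59 lists 28 had 0 members past it in either direction. These included 14 apolipoprotein, 15 coagulation and 17 plasma protein genes with a mean of at least 20 and 25 hepatocyte transcription factors. APOB, the gene with the most reads, had a ratio of 1.11 (1.09 to 1.13), ALB, serum albumin, 0.939 (0.895 to 0.985), and SERPINA1, alpha-1 antitrypsin, 0.911 (0.867 to 0.957). These intervals are narrow because the counts are deep, and they leave out the spread between cultures. TFPI, which inhibits the tissue factor pathway of clotting, was higher at 1.28 (1.22 to 1.35), and prothrombin, F2, was lower at 0.737 (0.636 to 0.855), both short of 1.5-fold. AHSG, fetuin A, was at 0.821 (0.759 to 0.888), and SERPINA3, antichymotrypsin, at 0.729 (0.626 to 0.849). Of the complement genes SERPING1, the C1 inhibitor, was higher, with normalized counts of 45 in shPJA1, 24.5 in shCtrl, 61.9 in the library titled shPJA/TGFb1 and 39.9 in TGFb1. Its ratios were 1.83 (1.08 to 3.21) and 1.55 (1.02 to 2.34) in the 2 pairs. The 27 epithelial junction and keratin genes, 28 extracellular matrix genes, 31 spectrin and actin genes, 23 Wnt targets, 21 oncofetal genes, 30 NRF2 targets and 32 heat shock genes also had 0 members past the rule. SOX9, a progenitor factor of the oncofetal list, was at 0.738 (0.668 to 0.817), the actin gene ACTB at 0.944 (0.899 to 0.991) and the heat shock gene HSPH1 at 1.33 (1.17 to 1.5).

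**Figure D5:**
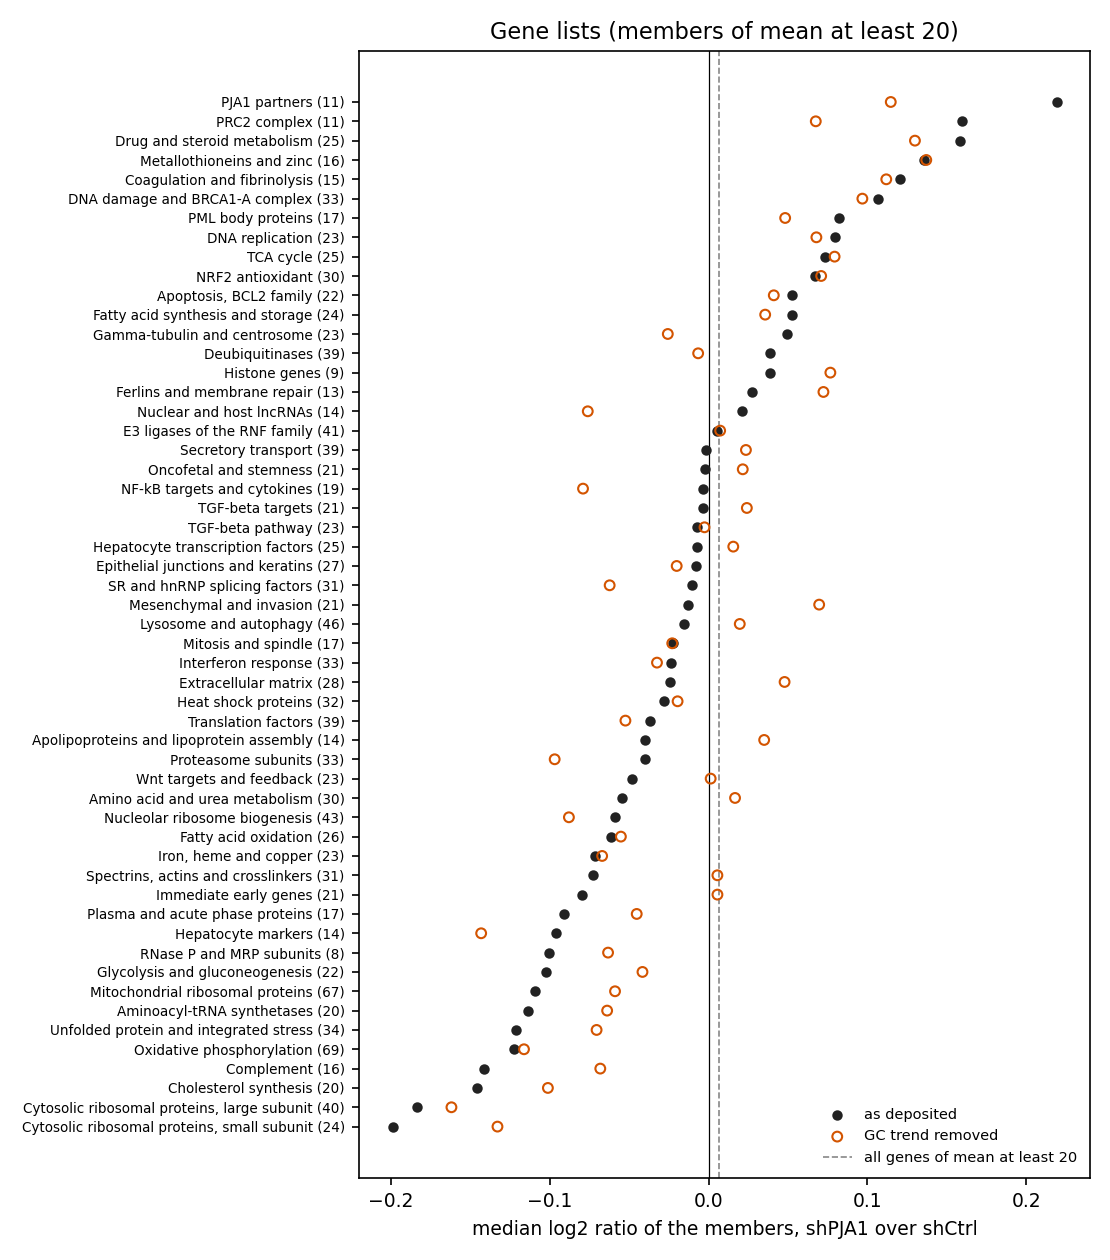
Median log2 ratio of shPJA1 over shCtrl for gene lists with at least 8 members of a mean of at least 20 (number in brackets), as deposited (black) and with the GC trend removed (orange circles). The dashed line is the median over all 8575 genes. The cytosolic ribosomal protein lists have the lowest black points, at -0.20 and -0.18, and several lists cross 0 once the GC trend is removed.

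The second pair, the library titled shPJA/TGFb1 over TGFb1, shared few of these differences. It had 295 genes higher (3.44%) and 231 lower (2.69%) by the interval rule. Higher in both pairs were 7 genes, which are 4.40% of the 159 and 2.37% of the 295. Over all 8575 genes 3.44% were higher in the second pair and 1.85% in the first. Lower in both were 5, which are 2.98% of the 168 and 2.16% of the 231, beside 2.69% and 1.96% of all genes. Both overlaps are near the shares over all genes, so they say little about the genes in them. In opposite ways went 5 of the 159 higher genes, which were lower in the second pair, beside 2.69% of all genes. The reverse held for 22 of the 168 lower genes, beside 3.44% of all genes higher in the second pair. Across the 8575 genes Pearson's r between the log2 ratios was -0.12 and Spearman's rho -0.15, and 43.3% of genes had the same sign, as a description only, since GC trends run opposite ways in the pairs and genes are not independent. The genes lower in both were PJA1, the calcium-dependent kinase gene CAMK2G, PDCD7 of the minor spliceosome, STEAP1, a surface protein of the metalloreductase family, and TTC35, a subunit of a membrane protein insertion complex. TTC35 had normalized counts of 32.4 in shPJA1, 52.6 in shCtrl, 16.3 in the library titled shPJA/TGFb1 and 42.7 in TGFb1, with ratios of 0.616 (0.386 to 0.977) and 0.382 (0.176 to 0.741). CAMK2G was at 0.55 (0.316 to 0.946) and 0.572 (0.325 to 0.957), PDCD7 at 0.63 (0.444 to 0.891) and 0.601 (0.374 to 0.931), and STEAP1 at 0.66 (0.44 to 0.989) and 0.617 (0.383 to 0.957). The genes higher in both were ZC3H4, SULT2A1, SERPING1, TMEM92, ERGIC2, CTIF and an uncharacterised locus. TMEM92, a membrane protein gene, had 38.7 in shPJA1, 19.9 in shCtrl, 32.6 in the library titled shPJA/TGFb1 and 11.4 in TGFb1, with ratios of 1.95 (1.09 to 3.64) and 2.86 (1.46 to 5.61). ERGIC2, of transport between the endoplasmic reticulum and Golgi, was at 1.62 (1.03 to 2.59) and 1.83 (1.27 to 2.61), and CTIF, which helps start translation on newly exported mRNAs, at 1.58 (1.05 to 2.41) and 1.56 (1.07 to 2.26). With the GC trend removed PDCD7, ERGIC2 and the uncharacterised locus no longer passed in the first pair.

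With all 4 libraries in 1 model, PJA1 alone was called. An edgeR quasi-likelihood fit to the reads, with a term for the hairpin and one for TGFb1, each taken from the titles, was run on 10210 genes with at least 40 reads. PJA1 fell, with a log2 change of -1.80 and an adjusted p of 0.0155 by edgeR with Benjamini-Hochberg adjustment, and it was lower in both libraries titled with the hairpin. This was 1 gene lower (0.00979%) and 0 higher, with 235 genes at an unadjusted p under 0.05. DESeq2 with the same terms called 0 genes in either direction, and its adjusted p for PJA1 was 1.00. The fit rests on the title of the library with conflicting labels and has 1 residual degree of freedom.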

How the data were processed

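Total RNA of HepG2 cells was sequenced in 4 libraries made with an Illumina TruSeq kit, per the labels' protocols. FastQC, Trimmomatic, TopHat2 2.0.10 and Cufflinks are named in the submitters' processing notes, without order or settings, and no source used here names the genome build, the annotation or the use of strand. Overlapping and antisense genes can therefore share reads.

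The deposited signal is 1 value per gene symbol and library. Although named as FPKM, it was not scaled by length. Every column proved to be 1 step times whole numbers for 100% of its values (tolerance 1e-06), so reads were recovered, and size factors of 1.11 (shPJA1), 0.856 (shCtrl), 0.614 (titled shPJA/TGFb1) and 1.76 (TGFb1) equal median-ratio factors. A count of 3 reads corresponds to normalized counts of 2.70 in shPJA1 and 3.51 in shCtrl.

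Ratios of normalized counts were given exact conditional 95% intervals of 2 Poisson counts, and the steps were tested on simulated data. Transcript GC content came from GENCODE release 29, matched by symbol or RefSeq synonym for 98.4% of genes. As an alternative, the deviation of a library from the mean of all was smoothed against GC content (lowess, span 0.3) and the smooth curve subtracted. edgeR 4.0.16, with TMM scaling, and DESeq2 1.42.0 were run in R 4.3.3 on the recovered read counts as alternatives, and edgeR called 1 of 10210 genes. Named genes are PJA1 and its partners, the 15 in each direction whose interval bound lay farthest from 1, the 10 highest and lowest ratios, and members of the lists with the largest ratios or most reads, without small RNAs and uncharacterised loci. Members past the interval rule, those past it in both pairs and genes named ZNF were added after their values were seen. Results for some genes are not reported here. The members and lists were chosen with earlier results of these data known. Other steps used matplotlib 3.10.9, statsmodels 0.14.6, scipy 1.17.1, pandas 2.3.3 and numpy 2.4.6 under Python 3.11.15.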

Additional observations from a re-analysis of the deposited data

Results flagged for a closer look

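The ratio of 9 named genes went one way in shPJA1 over shCtrl and the other way in the library titled shPJA/TGFb1 over TGFb1, past 1.5-fold with an interval without 1 in both pairs. Every one was lower in the first pair and higher in the second. With 1 library a side the difference between the pairs was not tested. BAX, a pore former of apoptosis, was at 0.539 (0.320 to 0.896) in the first pair and 2.26 (1.35 to 3.75) in the second. For HIST1H4C, a histone H4 gene, the ratios were 0.578 (0.356 to 0.928) and 2.60 (1.53 to 4.40). HIST1H4E, a histone H4 gene, was at 0.532 (0.430 to 0.656) in the first pair and 2.48 (1.93 to 3.18) in the second. For IFI35, an interferon-induced gene, the ratios were 0.435 (0.203 to 0.896) and 2.27 (1.17 to 4.32). JUND, an AP-1 subunit, was at 0.662 (0.524 to 0.834) in the first pair and 1.63 (1.27 to 2.08) in the second. For MRPS34, a mitochondrial ribosomal protein, the ratios were 0.586 (0.367 to 0.930) and 1.62 (1.03 to 2.51). NPM3, a nucleolar histone chaperone, was at 0.413 (0.234 to 0.710) in the first pair and 2.44 (1.34 to 4.42) in the second. For PMVK, a mevalonate pathway kinase, the ratios were 0.521 (0.30 to 0.888) and 2.27 (1.25 to 4.06). SNHG5, a snoRNA host transcript, was at 0.562 (0.353 to 0.887) in the first pair and 2.03 (1.19 to 3.42) in the second. The transcript GC content of these genes ran from 45.8% in HIST1H4E to 69.7% in JUND, and the GC medians also ran opposite ways in the pairs. With the GC trend removed from the first pair 8 of the 9 still passed, all but JUND at 0.712. The part of GC content in the second pair's ratios of these genes was not tested.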

How the results depend on the processing

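Counts of genes past a rule depended on the limit on the mean, the interval and the use of a model. With a mean of at least 1 in place of 20, 796 genes were at least 2-fold higher and 765 lower, and with at least 50 these counts were 2 and 3, and 86 higher and 71 lower by the interval rule, since fewer genes of low counts entered. A 99% interval left 66 higher and 68 lower. The edgeR fit called 0 higher and 1 lower and the DESeq2 fit 0 higher and 0 lower. TMM scaling, scaling by total reads, the mean over shPJA1 and shCtrl alone, a pseudocount of 1 and removal of the GC trend kept the counts within 1.5 times, and the PJA1 ratio stayed between 0.302 and 0.318 under each scaling, GC and pseudocount setting. Removing the GC trend changed the sign of 15 of 55 list medians, TMM scaling and scaling by total reads of 1 each, and a pseudocount of 1 of 0. By title the edgeR and DESeq2 fits pair each library with the hairpin with the library without it of the same TGFb1 title. No replicate could be left out because each condition has 1 library. Depth limits genes of a mean from 20 to 50, over which the upper bound of an interval was 2.89 times the lower at the median, and more at the low end.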
